A study of Homo sapiens with 6 samples.

Results

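Chromatin accessibility was described here at 10 genes of the Hippo pathway: YAP1, WWTR1 (which encodes TAZ), the 4 TEAD genes, and CCN1, CCN2, LATS2 and AMOTL2. In ATAC-seq, Tn5 transposase cuts and tags accessible DNA, and the data are lists of peaks, regions with more cut sites than the background of their library. A region belonged to a gene if it overlapped the gene body or lay within 10 kb of either end, in hg38 coordinates with GENCODE release 44 genes. After peaks that shared a base were joined across the 6 lists, 214 of 373067 regions belonged to the 10 genes.

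The cells were SK-N-AS, a human neuroblastoma cell line grown as xenografts in mice and then returned to culture as adherent cells. Naïve cells came from vehicle-treated tumors, and R1 and R2 from tumors that had relapsed and were growing under indisulam, a sulfonamide that brings the splicing factor RBM39 to the DCAF15 ubiquitin ligase for degradation. No group carries an engineered allele, the cultures themselves received no drug, and each of the 3 cell types has 2 libraries of 100000 cells. R1 and R2 are thus cells from treated tumors kept apart as separate cultures, and each stands for itself and not for resistance in general. Nothing in the labels says whether paired libraries stem from different cultures, so the p-values measure only the spread between these libraries, which may be technical.

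YAP1 and TAZ are transcriptional coactivators with no DNA-binding domain of their own. When the Hippo kinase cascade, ending in LATS1 and LATS2, is active, they are phosphorylated and held in the cytoplasm, and when it is not they enter the nucleus and bind the TEAD factors, which recognise the sequence GGAATG. TEAD sites often lie beside sites of AP-1, which recognises TGANTCA. The matricellular proteins CCN1 and CCN2 are standard readouts of the pathway, whereas LATS2 and AMOTL2 are both targets and inhibitors of YAP. In neuroblastoma, YAP and TAZ activity is associated with the mesenchymal rather than the adrenergic cell state.

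The sequences on which the results turn are shown first. The promoters of YAP1 and CCN2 are the 250 bases before the RefSeq start in hg38. That of YAP1 (chr11:102110197-102110446, plus strand) lies wholly within a peak region, whereas nearly all of that of CCN2 (chr6:131951373-131951622, minus strand) lies outside the CCN2 region. Capitals mark GGAATG on either strand.
YAP1 promoter: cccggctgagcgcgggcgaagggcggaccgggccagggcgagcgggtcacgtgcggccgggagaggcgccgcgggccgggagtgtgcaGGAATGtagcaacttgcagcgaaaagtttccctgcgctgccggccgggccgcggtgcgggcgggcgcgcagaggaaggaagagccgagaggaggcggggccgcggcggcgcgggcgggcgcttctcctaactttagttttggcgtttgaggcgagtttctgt
CCN2 promoter: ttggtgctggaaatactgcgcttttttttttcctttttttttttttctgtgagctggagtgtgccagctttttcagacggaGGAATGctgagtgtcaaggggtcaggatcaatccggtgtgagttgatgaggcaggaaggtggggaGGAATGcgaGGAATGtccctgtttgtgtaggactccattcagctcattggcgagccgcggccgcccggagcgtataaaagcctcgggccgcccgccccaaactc

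The CCN2 sequence holds 3 copies of GGAATG, which begin 169, 104 and 95 bases before the start, and the YAP1 sequence holds 1 copy, which begins 162 bases before it. In the window from 250 bases before to 50 bases after the start, 14.0% of the 35116 RefSeq promoters hold GGAATG on either strand. Of the members, LATS2 has 1 copy just after its start, AMOTL2 has 1 copy in 1 of its promoters, and TEAD2, TEAD3 and WWTR1 have none in theirs. TEAD1, TEAD4 and CCN1 were not among the matched promoters.

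The next sequences are 201 bases around the summits, as placed in the first R1 library, of 4 intronic regions, all on the plus strand of hg38. They are the 2 regions that ranked higher in R1 than in naïve cells (TEAD1, chr11:12746664-12746864, and TEAD4, chr12:3003628-3003828), 1 region with a peak called in both R1 libraries and in no other (TEAD1, chr11:12789564-12789764), and the AMOTL2 region that was its strongest in R2 (chr3:134364111-134364311). Capitals mark GGAATG or TGANTCA on either strand.
TEAD1 intron, higher in R1: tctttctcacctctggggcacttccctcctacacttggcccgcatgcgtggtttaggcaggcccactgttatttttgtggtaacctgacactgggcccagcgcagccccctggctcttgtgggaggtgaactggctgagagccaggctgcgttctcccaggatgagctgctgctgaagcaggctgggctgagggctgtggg
TEAD4 intron, higher in R1: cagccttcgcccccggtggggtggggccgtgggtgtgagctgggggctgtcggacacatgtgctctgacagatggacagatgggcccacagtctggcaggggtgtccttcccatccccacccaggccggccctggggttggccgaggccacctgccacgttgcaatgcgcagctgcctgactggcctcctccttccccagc
TEAD1 intron, peak called in R1 libraries: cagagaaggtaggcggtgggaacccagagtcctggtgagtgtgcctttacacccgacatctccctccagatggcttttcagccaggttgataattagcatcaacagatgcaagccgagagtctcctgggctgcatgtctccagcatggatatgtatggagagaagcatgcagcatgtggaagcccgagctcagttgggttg
AMOTL2 intron, strongest in R2: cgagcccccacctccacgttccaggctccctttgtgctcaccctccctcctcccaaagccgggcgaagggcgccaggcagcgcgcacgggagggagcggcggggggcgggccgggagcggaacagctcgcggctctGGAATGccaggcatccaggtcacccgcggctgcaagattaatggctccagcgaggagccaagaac

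GGAATG occurs once in the AMOTL2 window, and neither motif occurs in the TEAD1 and TEAD4 windows. A match is a description of the letters, and no binding was measured.

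The libraries differed most in depth. Each deposited fold enrichment returns the library's background rate and a whole number of tags at the peak's summit, and these rates ran from 0.850 and 0.899 tags per window (R2) over 1.35 and 2.29 (naïve) to 5.43 and 7.94 (R1). The lowest summit called as a peak was 2.27 and 2.58 times the rate in R1, 3.93 and 5.18 times in naïve and 7.06 and 6.68 times in R2 cells. Member regions with a peak also moved with depth, from 38 and 39 in the R2 lists over 61 and 82 in the naïve lists to 151 and 189 in the R1 lists, so these counts were not compared between cell types. Of the 214 regions, 74 had a peak in 1 library only. Values are therefore given as tags, as tags over the rate, and as the percentile rank of the −log10 p among the 24147 regions with a peak in all 6 libraries (common regions), where 100 is the strongest. Regions shared by all libraries stood at a median of 11.8 and 13.3 times the rate in naïve, 13.5 and 13.2 in R1 and 15.3 and 15.6 in R2 cells. R2 thus stood higher over the rate at common regions as a whole, which bears on each comparison of such values between cell types. Marker promoters were checked with peaks within 1000 bp of a start. Any peak in all 6 libraries was found at 7 of 8 adrenergic and 6 of 8 mesenchymal neuroblastoma marker genes, at 1 of 4 leukocyte genes and at 2 of 4 epithelial genes, against 59.6% of all coding genes. A promoter among the top 20000 peaks of every library was found at 2 of 8 adrenergic, 4 of 8 mesenchymal and 0 of 8 leukocyte and epithelial genes, against 36.8% of coding genes.

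Promoters of WWTR1, the TEAD genes, CCN1 and AMOTL2 had a peak in all 6 libraries, whereas those of YAP1, CCN2 and LATS2 missed the threshold in at least 1. A peak in every library is not a measure of level. Over the rate, YAP1 stood above WWTR1 in the second R1 library and both R2 libraries, and below it in the first naïve and first R1 libraries. A promoter here is the best-ranked region within 1000 bp of an annotated start. That of TEAD2 lies 465 bp from the nearest TEAD2 start and covers none. The region over the canonical TEAD2 start had no peak in the second R2 library. Among the top 20000 peaks of every library were the promoters of 6 of the 10 members, namely TEAD1, TEAD2, TEAD3, TEAD4, CCN1 and AMOTL2. Of all 20007 protein-coding genes, 36.8% met this rule. WWTR1 was added when any peak counted, which made 7 of 10 members against 59.6% of the coding genes. At the top 10000 peaks only TEAD4 was left.

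YAP1, the coactivator itself, had a single region over a gene body of 122978 bp and its flanks, and it was the promoter (chr11:102109963-102111708). It held 17 tags in the first naïve library and no peak in the second, 55 and 49 tags in R1, and 9 and 11 in R2. Over the rate these were 7.43 in the naïve library, 6.93 and 9.02 in R1 and 10.6 and 12.2 in R2 cells. Over the rate, the 95% Poisson intervals of the counts were 4.33 to 11.9 in the naïve library and 4.84 to 20.1 in the first R2 library. These overlapped, but overlap of intervals is not a test, and differences at YAP1 were not tested. Such intervals cover counting error only. In bulk chromatin, more open cells and more opening per cell cannot be told apart.

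WWTR1, which encodes TAZ, had 19 regions, of which only the promoter (chr3:149656702-149659079) was common. Its promoter held 29 and 14 tags in naïve, 63 and 34 in R1 and 8 and 9 in R2 cells. Over the rate the values were 12.7 and 10.4, 7.93 and 6.26, and 9.41 and 10.0, and the percentile ranks were 56.9 and 26.1 in naïve, 16.3 and 5.14 in R1 and 5.36 and 11.7 in R2 cells. All 4 resistant libraries thus ranked below both naïve libraries. The R2 ranks rest on few tags and are coarse, since a region with 9 tags in the first R2 library ranked at 12.8. Over the rate, the 95% Poisson intervals were 4.06 to 18.5 and 4.58 to 19.0 in R2 cells. They were 8.49 to 18.2 and 5.67 to 17.4 in naïve cells. The mean shift in rank was −30.8 points in R1 (SE 10.9, adjusted p = 0.130, limma) and −33.0 in R2 (SE 10.9, adjusted p = 0.167, limma), so neither passed the test. Without the first naïve library the shifts were −15.4 and −17.6, and without the second −46.1 and −48.4.

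TEAD1 had the strongest promoter of the 10 in R1. This region (chr11:12673775-12675502) held 37 and 21 tags in naïve, 292 and 161 in R1 and 17 and 21 in R2 cells. Relative to the rate these were 16.2 and 15.5 in naïve, 36.8 and 29.6 in R1 and 19.99 and 23.4 in R2 cells. R1 thus lay above the naïve and R2 libraries, which were closer to each other.

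The other TEAD promoters differed less between cell types. TEAD4 (chr12:2958100-2961720) stood 16.2 and 22.2 times over the rate in naïve, 18.5 and 20.6 times in R1 and 19.99 and 22.3 times in R2 cells. TEAD3 (chr6:35489850-35501547) stood 11.4 and 19.2, 19.5 and 17.1, and 18.8 and 16.7 times over it. The TEAD3 region spans 11698 bp, and each library is given by its best peak there, so the summits can differ between libraries. The TEAD2 region (chr19:49362922-49365749) stood 13.1 and 18.5, 13.0 and 13.2, and 22.3 and 14.5 times over the rate. DKKL1 also starts within 1 kb of that region, which covers no TEAD2 start. The ranges of the 3 cell types overlapped in TEAD3 and TEAD4, and in TEAD2 the R1 and R2 ranges alone were apart.

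CCN1 and CCN2, the paired readouts of the pathway, were unlike each other in level. The CCN1 promoter (chr1:85580468-85581786) held 34 and 24 tags in naïve, 134 and 78 in R1 and 15 and 22 in R2 cells, which were 14.9 and 17.8, 16.9 and 14.4, and 17.6 and 24.5 times the rate. CCN2 (chr6:131950413-131951382) held 13 tags in the first naïve library, 32 and 35 in R1 and 10 in the first R2 library, with no peak in the other two. Its summit lay 732 bp inside the gene and stood 5.68, 4.03, 6.44 and 11.8 times over the rate. The lowest level that could be called was 5.18 times in the second naïve and 6.68 times in the second R2 library, so that a summit at the level seen in naïve cells or R1 would lie close to or under it there.

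The 2 inhibitors that are also targets differed too. LATS2 (chr13:21060849-21061786) had a promoter peak of 71 and 37 tags in R1 and of 10 tags in the first R2 library, and none elsewhere. These stood 8.94, 6.81 and 11.8 times over the rate. The lower R1 level was less than 2 times the lowest callable level of the second naïve library, 5.18, so that the absence of a naïve peak was not counted as a difference. The AMOTL2 promoter (chr3:134372712-134375853) held 48 and 20 tags in naïve, 168 and 122 in R1 and 12 and 15 in R2 cells. Over the rate it stood at 21.0 and 14.8, 21.2 and 22.4, and 14.1 and 16.7, so that R2 overlapped naïve cells and R1 lay just above them.

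**Figure D1:**
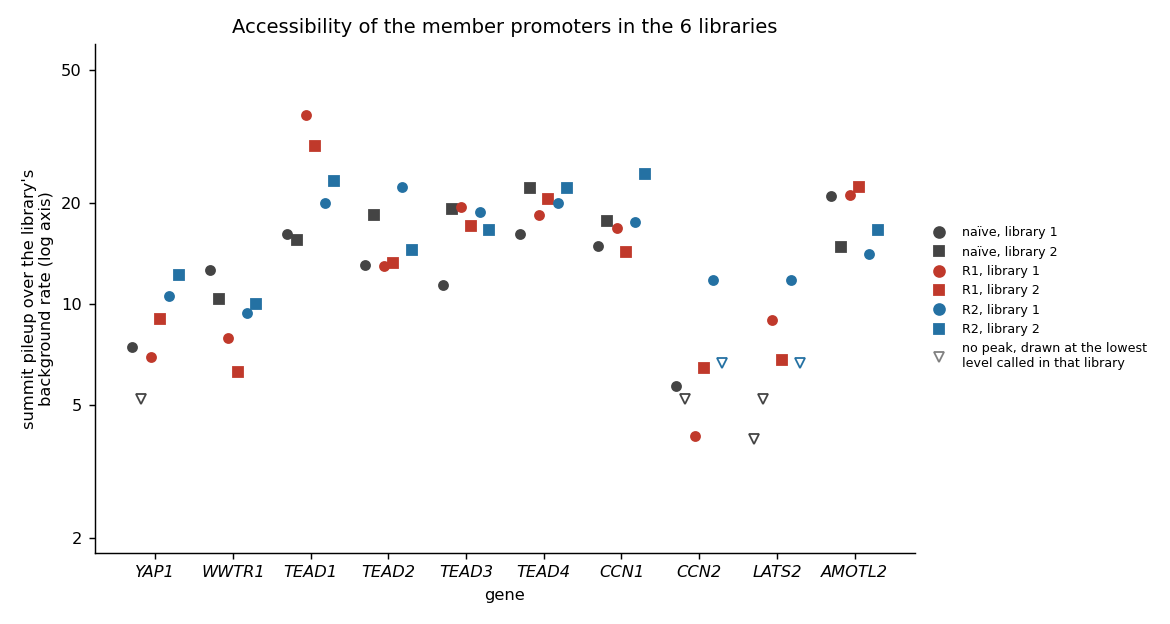
Summit tags over the background rate (log axis) at the promoter region of each of the 10 genes, 1 symbol per library (circles first, squares second; grey naïve, red R1, blue R2); open triangles mark libraries with no peak, at the lowest level called there. TEAD1 stands at 36.8 and 29.6 in R1 against 16.2 and 15.5 in naïve cells, and WWTR1 stands at 7.93 and 6.26 in R1 against 12.7 and 10.4 in naïve cells.

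To ask whether the genes differed between R1 and naïve cells, percentile ranks were compared over common regions with limma, which shares 1 estimate of the spread among the 3 cell types. The spread was unequal, since paired libraries differed by a median of 4.29 points in R1, 9.53 in naïve and 10.7 in R2 cells. A shared standard error can therefore be too small for R2 against naïve cells and too large for R1 against naïve cells. Of the 24 common regions of the 10 genes, 3 ranked higher in R1 and none lower: the TEAD1 promoter, a TEAD1 intron and a TEAD4 intron. Over all 24147 common regions, 3.32% were called higher and 4.32% lower in R1, or 7.64% in either direction. At an unadjusted p under 0.05, 5 of the 24 and 26.2% of all regions passed. The median shift was 5.66 points over the 24 and 0.00414 over all regions, and 15 of the 24 shifts were above 0. At the 7 member promoters among them the median was −6.45 points, against 3.33 over the promoters of all coding genes. The 3 comparisons between cell types share libraries and are not independent of each other.

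TEAD1 supplied 2 of the 3 calls. Its promoter ranked at 74.0 and 62.3 in naïve, 96.1 and 91.7 in R1 and 67.5 and 78.5 in R2 cells, so that both R1 libraries were above the other 4. The shift was 25.7 points in R1 (SE 6.12, adjusted p = 0.0492, limma) and 4.84 in R2 (adjusted p = 0.700). Other common regions within 5 Mb had a median shift of 0.182 points in R1.

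The TEAD1 intron (chr11:12746552-12747010), 72343 bp from the start, held 19 and 16 tags in naïve, 192 and 140 in R1 and 17 and 14 in R2 cells. Over the rate it stood at 8.31 and 11.8 in naïve, 24.2 and 25.8 in R1 and 19.99 and 15.6 in R2 cells, and the ranks were 20.6 and 38.8, 82.5 and 86.8, and 67.5 and 51.8. All 4 resistant libraries ranked above both naïve ones. The shift was 54.9 points in R1 (SE 11.1, adjusted p = 0.0335, limma), against 29.9 in R2 (adjusted p = 0.202), and R1 and R2 did not differ past the threshold (25.04 points, adjusted p = 0.260).

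The TEAD4 intron (chr12:3002598-3005343), 44331 bp from the start, held 19 and 11 tags in naïve, 140 and 127 in R1 and 15 and 11 in R2 cells. Ranks were 20.6 and 7.40 in naïve, 65.7 and 82.4 in R1 and 59.1 and 29.5 in R2 cells. This was the other region with all resistant libraries above naïve and a call, with a shift of 60.0 points in R1 (SE 13.4, adjusted p = 0.0418, limma) and 30.3 in R2 (adjusted p = 0.264). Common regions within 5 Mb of it had a median shift of 8.78 points in R1.

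All 3 calls rested on 4 libraries, since leaving out either R1 library or either naïve library ended each of them. The TEAD1 promoter then shifted by 19.8 to 31.6 points, the TEAD1 intron by 45.9 to 64.0 and the TEAD4 intron by 51.7 to 68.4, with adjusted p-values from 0.0529 to 0.393 where a call was lost, so that the direction was unchanged in these runs. With the GC content of regions taken into account, the adjusted p of the TEAD1 promoter was 0.0696, and with the local level subtracted it was 0.0807.

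**Figure D2:**
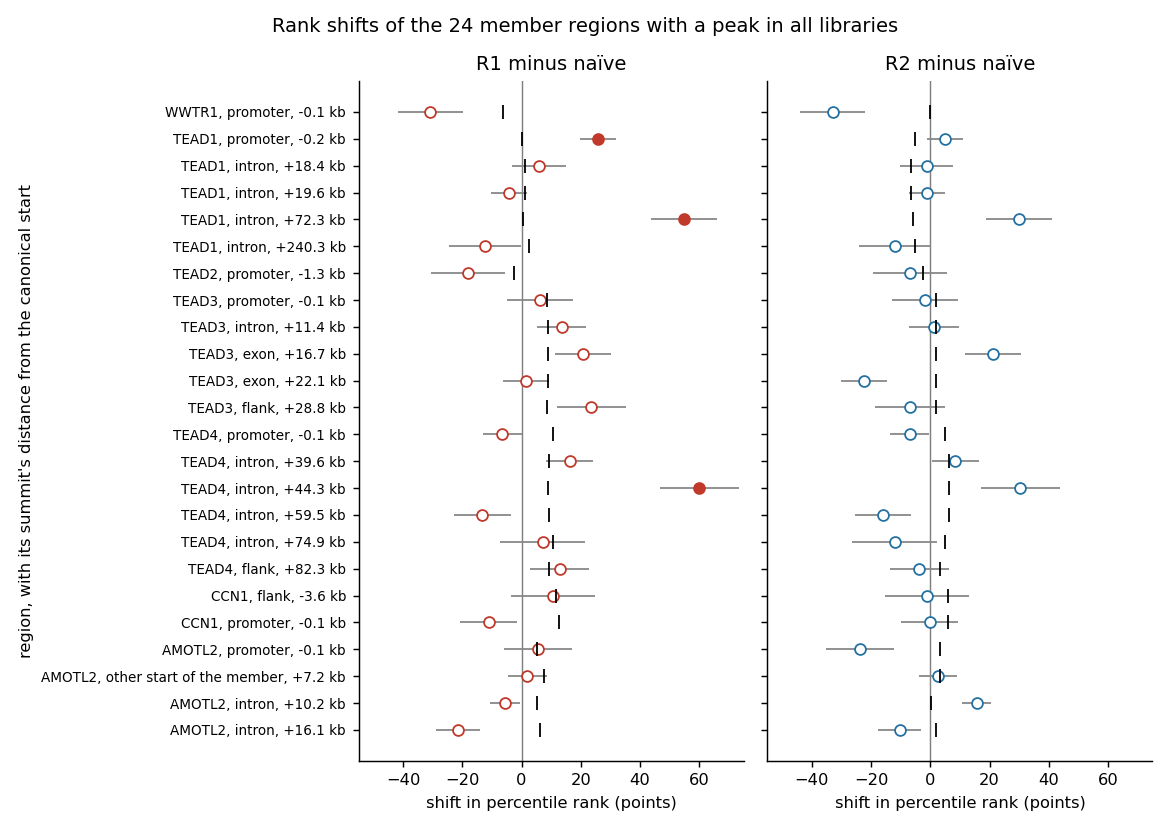
Shift in percentile rank (points, with standard error bars) of the 24 common member regions in R1 minus naïve and in R2 minus naïve; filled points passed limma at an adjusted p under 0.05 and black ticks give the median shift of common regions within 5 Mb. The TEAD1 intron at 54.9 and the TEAD4 intron at 60.0 lie furthest to the right in R1, and the WWTR1 promoter lies at −30.8 and −33.0.

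Among the strongest other regions of the TEAD genes and CCN1, those that were common were tested and not called. A TEAD1 intron far from the start (chr11:12914378-12914900) held 41 and 18 tags in naïve, 110 and 76 in R1 and 14 and 14 in R2 cells, ranks of 49.8 to 79.8 that overlapped between cell types. In TEAD4 an intron (chr12:3030633-3034582) held 28 and 19 tags in naïve, 142 and 80 in R1 and 10 and 16 in R2 cells. The flank of TEAD3 (chr6:35467260-35469426), where RPL10A also starts, held 21 and 19, 133 and 97, and 11 and 12 tags, and its shift in R1 was 23.6 points (SE 11.8, adjusted p = 0.255, limma). Upstream of CCN1, a region shared with the start of DDAH1 (chr1:85576265-85578466) held 39 and 16, 151 and 95, and 13 and 17 tags, a level like that of the CCN1 promoter. TEAD2 had a region over its canonical start (chr19:49359388-49362771) with 22 and 15, 75 and 45, and 10 tags, and no peak in the second R2 library. LATS2 had an exonic region (chr13:20988325-20989327) with 32 and 24 tags in R1 and 9 in the first R2 library, and none in naïve cells. These TEAD2 and LATS2 regions were not common and were not tested.

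The comparison of R2 with naïve cells gave no call among the 24 member regions. None was called over all 24147 regions either (0.0%, limma), although 19.9% of all regions and 4 of the 24 passed an unadjusted p under 0.05. Member shifts ran from −33.0 at the WWTR1 promoter to 30.3 at the TEAD4 intron, with a median of −1.52 against −0.478 over all regions, and 8 of 24 were above 0. The lowest adjusted p was 0.149, at an AMOTL2 intron.

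That AMOTL2 region (chr3:134363131-134365518) lies 10236 bp into the gene and holds 1 GGAATG near its summit, as printed above. It held 39 and 24 tags in naïve, 154 and 94 in R1 and 29 and 27 in R2 cells. Over the rate it stood at 17.0 and 17.8, 19.4 and 17.3, and 34.1 and 30.0, and it was the strongest AMOTL2 region in R2, above the promoter at 14.1 and 16.7. The ranks were 77.1 and 71.5 in naïve, 71.3 and 66.2 in R1 and 91.4 and 88.7 in R2 cells, a shift of 15.7 points in R2 (SE 4.91, adjusted p = 0.149, limma).

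Counting libraries alone, 3 of the 24 regions had all 4 resistant libraries above both naïve libraries, against 12.7% of all common regions. They were the 2 introns of TEAD1 and TEAD4 and an exonic TEAD3 region (chr6:35478926-35481887). In the opposite direction there were 2 of 24, against 14.9% of all, the WWTR1 promoter and an AMOTL2 intron (chr3:134357140-134358792) with 23 and 14 tags in naïve, 58 and 38 in R1 and 10 and 10 in R2 cells.

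Between R1 and R2 no member region was called, whereas 2.68% of all common regions were, 0.464% higher and 2.22% lower in R1. At an unadjusted p under 0.05, 5 members and 20.6% of all regions passed. The median shift was 7.53 points over the members and 1.30 over all regions. The lowest adjusted p was that of the AMOTL2 intron, which was 21.3 points lower in R1 (adjusted p = 0.0694, limma), followed by the TEAD1 promoter, which was 20.9 points higher (adjusted p = 0.119).

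Ranks cover only regions open in every library, so peaks missing from a cell type were looked at separately. A region counted as missing when both libraries of one cell type had a peak there, its level scaled by depth was at least 2 times the lowest called in both libraries of the other, and the other had no peak. This rule was chosen after the data were seen and is a count with no test. Of 16 member regions strong enough in R1, 1 was missing in naïve cells, against 4.09% of all such regions, and of 49 strong enough in naïve cells, 1 was missing in R1, against 1.47%. None was missing among 21 in R2 against naïve cells (3.15% of all), 5 in naïve cells against R2 (0.162%), 11 in R1 against R2 (0.570%) and 25 in R2 against R1 (0.881%).

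The region found in R1 was a TEAD1 intron (chr11:12789461-12790168), 115243 bp from the start. It held 107 and 78 tags in the R1 libraries, 13.5 and 14.4 times the rate, and had no peak in any other library. At the lower of those levels, 30.8 and 18.2 tags would be seen in the naïve libraries, where the lowest called summits held 9 and 7. The same level is less than 2 times the lowest called in the first R2 library, 7.06, so that the absence of an R2 peak was not counted as missing.

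**Figure D3:**
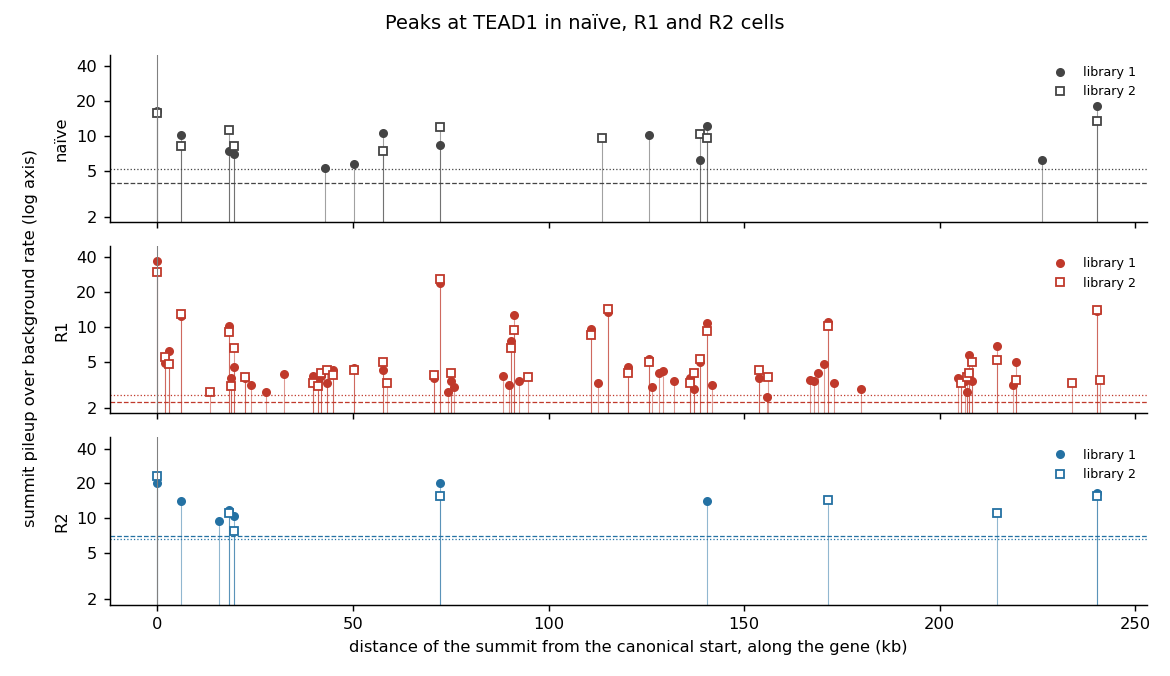
Summit tags over the background rate (log axis) of each TEAD1 peak against its distance from the canonical start in kb, by cell type; filled symbols are the first and open symbols the second library, and dashed and dotted lines mark the lowest level called in each. R1 has peaks of 24.2 and 25.8 at 72 kb, where naïve cells have 8.31 and 11.8, and of 13.5 and 14.4 at 115 kb, where no peak was called in the naïve and R2 libraries.

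WWTR1 also had regions with peaks in some of the libraries only. Near an internal start (chr3:149575550-149576541), naïve cells had 22 and 13 tags and R1 had 28 and 29, which were 9.62 and 9.62 and 3.53 and 5.34 times the rate, with 10 tags in the first R2 library. An intron further on (chr3:149536391-149536755) had 82 and 65 tags in R1, 10 in the second naïve and 13 in the second R2 library, or 10.3, 12.0, 7.40 and 14.5 times the rate. These regions were not common, and their differences were not tested.

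Other genes of the pathway were taken from lists and described by counts, beside all coding genes. Of 12 Hippo kinases and scaffolds, 6 had a promoter among the top 20000 peaks of every library, and of 18 other YAP and TAZ targets 8 did, against 36.8% of coding genes. Among those with a common promoter region, 2 of 8 Hippo genes and 0 of 12 targets were called higher in R1 than in naïve cells and none lower, against 551 higher and 254 lower of 12028 coding genes.

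The 2 called genes were STK4, the MST1 kinase at the head of the cascade, and NF2, which encodes the scaffold merlin. STK4 ranked at 64.3 and 71.5 in naïve, 94.9 and 92.1 in R1 and 86.9 and 80.7 in R2 cells, a shift of 25.6 points in R1 (SE 4.38, adjusted p = 0.0245, limma). NF2 ranked at 85.0 and 89.4, 98.6 and 99.0, and 95.8 and 98.0, a shift of 11.6 points in R1 (SE 1.99, adjusted p = 0.0245, limma). Common regions within 5 Mb shifted by a median of 20.1 points around STK4, on chromosome 20, and 18.9 around NF2, on chromosome 22, so that for these genes the surrounding chromosome moved with the promoter, and its part in the result was not tested. Among the targets, the promoters with the highest mean rank were those of GADD45A, a stress-response gene, and PTPN14, which encodes a phosphatase that binds YAP, with ranks of 87.1 to 95.8 and of 89.7 to 96.4 across the 6 libraries. That with the lowest mean rank was ARHGEF17, at 12.7 to 54.4.

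The coding genes with promoter ranks nearest to those of CCN1 over the 6 libraries, by root mean square difference among 12028 genes, were ENOX2 (3.70 points), SPPL2B (3.76) and NES (3.81). For WWTR1 they were COL5A3 (7.32), CLEC2L (8.49) and CTRB2 (8.60). YAP1 and CCN2 have no common promoter region, and no such genes were named for them.

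Motifs near the summits were counted as a description. The summit of a region was that of the first R1 library. Without a peak there, it was that of the library where the region ranked best. Within 100 bp of the summit, GGAATG occurred in 28 of the 214 member regions (13.1%) and in 5 of the 24 common ones (20.8%). It occurred in 8.94% of all common regions, 13.5% of those away from gene starts and 6.26% of those at starts. Most of the 214 are not common, and no matching share was counted for such regions. TGANTCA occurred in 22 of the 214 (10.3%) and 1 of the 24 (4.17%), against 7.09% of all common regions, 12.5% of those away from starts and 3.88% of those at starts. The 5 common regions with GGAATG are those taken as the promoters of TEAD2, TEAD4, CCN1 and AMOTL2 and an AMOTL2 intron. The TEAD2 region covers no TEAD2 start, and its match lies outside the RefSeq promoters of TEAD2, which hold none. The longer TGGAATGT occurred in none of the 24 and in 0.692% of all.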

How the data were processed

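The authors made 6 ATAC-seq libraries from SK-N-AS xenograft-derived cells and, per the methods and the submitters' processing notes, aligned reads with BWA 0.7.12-r1039, marked duplicates with Picard 1.65, filtered with SAMtools 1.3.1, dropped mitochondrial reads, offset read ends for Tn5 and called peaks per library with MACS2 2.2.7.1; BEDTools 2.25.0 is also listed. The methods name hg19, and the notes name hg19 and hg38. The deposited coordinates fit hg38, with 9929 bp the shortest distance to a chromosome end, and hg38 was used.

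Each deposited peak has a fold enrichment (a ratio over background), −log10 values of the p-value and q-value, and a score that repeats the q-value, all as the authors' caller gave them. Folds returned whole pileups (tags) and a background rate per library. Libraries held 67558 to 340558 peaks. Peaks were joined on 1 shared base. Where a library had several peaks in a joined region, the peak with the highest −log10 p gave its value, so summits can differ between libraries. Percentile ranks of −log10 p over 24147 common regions were compared with limma 3.58.1 in R 4.3.3 (variance trend, two-sided, Benjamini-Hochberg over all common regions, threshold 0.05); an exact test of 2 against 2 libraries cannot reach that threshold. In simulations with 4000 changed regions 1132 were called with 20 unchanged ones, and with 200 changed none was called, so that isolated changes can be missed. They changed R1 alone, by a single fixed factor up or down with an assumed library noise, so the counts hold for that setting only. Tables and figures used Python 3.11.15, NumPy 2.4.6, pandas 2.3.3, SciPy 1.17.1 and matplotlib 3.10.9. Promoter sequences are RefSeq's in hg38, with 7 of 10 members matched.

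Every member was named, with its promoter, called regions and some of its other strong regions. The promoter was the best-ranked region within 1000 bp of an annotated start. Members and lists were chosen with earlier results of these data known. The region with peaks in naïve cells and none in R1 is counted but not reported here.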

Additional observations from a re-analysis of the deposited data

Results flagged for a closer look

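An AMOTL2 intron (chr3:134363131-134365518) ranked on opposite sides of naïve cells in R1 and R2. Both R1 libraries (71.3 and 66.2) ranked below both naïve libraries (77.1 and 71.5), and both R2 libraries (91.4 and 88.7) ranked above them. The difference between R1 and R2 was −21.3 points, with an adjusted p of 0.0694 by limma, so it did not pass the test. Neither did the shift in R1 (−5.57 points, SE 4.91, adjusted p = 0.519, limma) or in R2 (15.7 points, adjusted p = 0.149, limma). Over the background rate, R1 (19.4 and 17.3) overlapped naïve cells (17.0 and 17.8).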

How the results depend on the processing

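Among the members, the direction of the R1 shifts of the TEAD1 promoter, the TEAD1 intron, the TEAD4 intron and the WWTR1 promoter held under every alternative that gave a value, but the number of calls did not. The 3 member calls in R1 against naïve cells fell to 1 without the variance trend, with regions of the first R2 list or with a replicate block, and the 1 called promoter (TEAD1) to 0 in those fits, with GC adjustment, with the local level subtracted and at a q of at least 5 on the −log10 scale. The replicate numbers share no batch in the labels and correlations of deviations ran from −0.0223 to 0.0309, so they did not pair the libraries. Over all regions, R2 against naïve cells gave 485 calls with GC adjustment, 494 with inverse-normal scores, 144 with the local level subtracted and 1191 with regions of the first R2 list, and R1 against R2 gave 1530 with inverse-normal scores, 410 without the trend, 4092 with the first R2 list and 332 with the block. Member calls between R1 and R2 became 1 with inverse-normal scores (1 promoter) and 2 with the first R2 list. Only 1 member promoter was in the top 10000 peaks of every library. Uncalled promoter shifts that changed sign were, in R1 against naïve cells, TEAD3 (−2.25, local level), in R2 against naïve cells with the first R2 list TEAD2 (1.97), TEAD3 (9.18), TEAD4 (0.724) and CCN1 (8.54), CCN1 with GC adjustment (2.04), inverse-normal scores (0.0222 score units) and the stricter q (0.0715), and in R1 against R2 TEAD3 (−8.59, first R2 list) and TEAD4 (−6.80 with GC adjustment, −5.06 local level, −13.6 first R2 list).
Leaving out each library in turn gave 30 to 2923 calls over all regions in R1 against naïve cells, 0 to 1 in R2 against naïve cells and 0 to 160 in R1 against R2, with 0 to 3 member calls and 0 to 1 promoter calls in R1. Promoter shifts that crossed 0 ran, in R1 against naïve cells, from −7.69 to 20.4 (TEAD3) and −8.60 to 19.7 (AMOTL2), in R2 against naïve cells from −1.04 to 10.7 (TEAD1), −21.4 to 7.53 (TEAD2), −15.8 to 12.3 (TEAD3) and −10.9 to 10.6 (CCN1), and in R1 against R2 from −3.39 to 7.80 (WWTR1), −25.5 to 3.40 (TEAD2) and −3.71 to 4.81 (TEAD4). A lone library was assumed to vary like the others. Ranking by fold and the overlap of a fraction of 0.5 gave the main values by construction, since all peaks of a list share 1 rate and every merged region contains its peaks whole. For the other changes the cause was not tested. Depth limits R2 most, where no summit under 6 tags was called.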

Other observations

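TEAD and AP-1 motifs were also counted away from transcription starts, as values with no test. Of the regions with strong peaks in naïve cells and none in R1, 51.4% of 652 held TGANTCA within 100 bp of the summit, against 10.5% of 27395 with a peak in at least 1 R1 library. GGAATG was at 16.9% and 11.9% in the same sets. The summits were unlike, since regions with no R1 peak were scanned at naïve or R2 summits. The others were scanned at the summit of the first R1 library where it had a peak. Conversely, of regions with strong peaks in R1 and none in naïve cells, 4.78% of 544 held TGANTCA, against 7.69% of 4528, and 11.8% against 13.6% held GGAATG.

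Common regions away from starts gave the same order for TGANTCA. The median shift of the 1123 regions with it was −20.9 points in R1 and −3.28 in R2, against −2.96 and 0.306 for the 7857 without, and after GC adjustment −16.5 and −5.51 against −0.604 and 0.00466. The 1210 regions with GGAATG had a median difference between R1 and R2 of −12.9 points, −5.05 after GC adjustment and −4.105 with the local level subtracted. For the 7770 without it these values were −2.46, −0.397 and −1.30. In R1 against naïve cells they were −8.395, −1.27 and −3.10 with GGAATG, against −3.84, −1.70 and −1.07 without. The 118 regions with the longer and rarer TGGAATGT had median ranks of 46.5 and 44.5 in naïve, 27.7 and 31.4 in R1 and 63.7 and 70.0 in R2 cells. Their median difference between R1 and R2 was −28.0 points, which was −10.9 after GC adjustment and −3.40 with the local level subtracted. For the 8862 regions without it the same values were −3.38, −0.692 and −1.60. In R1 against naïve cells the median shift of the 118 was −11.7 points. It was 0.0479 after GC adjustment and −1.93 with the local level subtracted, against −4.30, −1.69 and −1.29 for the 8862.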
